A study of Mus musculus with 18 samples.

Results

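miR-204 and miR-211 are a pair of microRNAs whose 5p arms share a seed, the stretch near the 5′ end that picks the messenger RNAs a microRNA can bind. They were followed here through 3 arms, mmu-miR-204-5p, mmu-miR-204-3p and mmu-miR-211-5p (written below without the species prefix), taken by name from the 1251 entries of the mouse table, with miR-211-3p added as the remaining arm of both hairpins. The arms were chosen by their levels in lesions against skin in earlier results of these same libraries, so their differences from skin are given as descriptions, with no test. Of the 3 arms, miR-204-5p followed that description, miR-211-5p did so only in part, and miR-204-3p stood at the lowest value of the table in every library. The samples were 18 small RNA libraries from 6 female SKH-1E Hairless littermates, an albino, hairless strain prone to UV-induced skin tumours. Every mouse had been irradiated chronically with low-dose ultraviolet light, both B and A, from a solar simulator, and was sampled after irradiation had stopped. Each gave 1 library of chronically irradiated nonlesional skin (CHR), 1 of papilloma (PAP) and 1 of cutaneous squamous cell carcinoma (cuSCC), so that n = 6 for each sample type. No library came from unirradiated skin, and CHR, which itself carries solar damage, is the reference throughout. Lesions were taken in bulk, so the data cannot tell fewer cells of a type from less microRNA per cell.

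A microRNA hairpin is cut into a 5p and a 3p arm, and usually one of them is loaded into Argonaute and represses messenger RNAs that carry a match to its seed. miR-204 is encoded in an intron of Trpm3 and miR-211 in an intron of Trpm1, a pair of related ion channel genes, and each is known to be made together with its host transcript. Trpm1, also called melastatin, is known as a gene of pigment cells under control of MITF, while miR-204 is known for the retinal pigment epithelium and other epithelia, where the family is credited with holding the epithelial state against transforming growth factor beta signalling.

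The mature sequences, from RefSeq on GRCm38.p6, are shown because the similarity of the 5p arms bears on how far their values can be told apart. They read 5′ to 3′, with the seed (bases 2 to 8) in capitals.
miR-204-5p: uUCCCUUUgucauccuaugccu
miR-211-5p: uUCCCUUUgucauccuuugccu
miR-204-3p: gCUGGGAAggcaaagggacgu
miR-211-3p: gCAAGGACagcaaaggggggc

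Both 5p arms have 22 bases, of which 21 are identical. The only difference, counted from the 5′ end with miR-204-5p as the reference, was A17U, outside the seed. A seed match in a target therefore reads AAAGGGA for both. The authors mapped reads with BLAST and did not say how reads matching both arms were divided, so the split between miR-204-5p and miR-211-5p is uncertain and their sum is also given. Of 1679 mature mouse sequences, 3 carried this seed, and the third, miR-7670-3p, is not analysed here. The seeds of the 3p arms differ from it and from each other. The miR-204 hairpin lies at chr19:22750605-22750672 on the plus strand of GRCm38, within Trpm3 (19:22139046-22995410) and outside every annotated Trpm3 exon. The miR-211 hairpin lies at chr7:64205806-64205911 on the plus strand, within Trpm1 (7:64153835-64269775) and likewise outside its exons. The levels of Trpm3 and Trpm1 themselves were not analysed here.

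Levels are log2 values of ppm of the usable reads, quantile normalized between libraries by the authors, so they place a microRNA within its library and can be compared as relative levels. The lowest value of the table, 3.32, equals 10 ppm on this scale and is taken to mean not detected. Libraries differed in how far down they reached, with between 200 and 328 entries detected in CHR, between 163 and 281 in PAP, and between 236 and 365 in cuSCC. The lowest detected value of a library lay between 3.39 and 5.77 in CHR, between 3.71 and 6.83 in PAP, and between 3.32 and 4.50 in cuSCC. The PAP of mice 7 and 10 were the shallowest by this measure, with no detected value under 6.72 and 6.83. The read depth behind each value is unknown, so no interval from counting error is given. miR-205-5p and miR-203-3p, which mark keratinocytes, were detected in all 18 libraries at 17.37 to 18.47 and 11.03 to 13.33.

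In CHR, miR-204-5p stood at 9.26, 9.64, 9.44, 9.70, 9.19 and 9.58 in mice 2, 3, 7, 8, 9 and 10. It was thus steady among the skins of 6 animals, at 9.47 ± 0.21 (SD, n = 6), and ranked 87 to 97 from the top of its library. Its SD was the 15th smallest of the 293 microRNAs tested (those detected in at least 6 libraries), whose median SD in CHR was 0.57. In PAP it was detected in mouse 2 at 6.26 and in mouse 8 at 4.74, and was undetected in mice 3, 7, 9 and 10. In cuSCC it stood at 5.53, 5.70, 5.03, 8.24 and 3.89 in mice 2, 3, 7, 8 and 9 and was undetected in mouse 10. All 12 lesions lay below all 6 skins, with a gap of 0.96 between the highest lesion, the cuSCC of mouse 8, and the lowest skin.

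**Figure D1:**
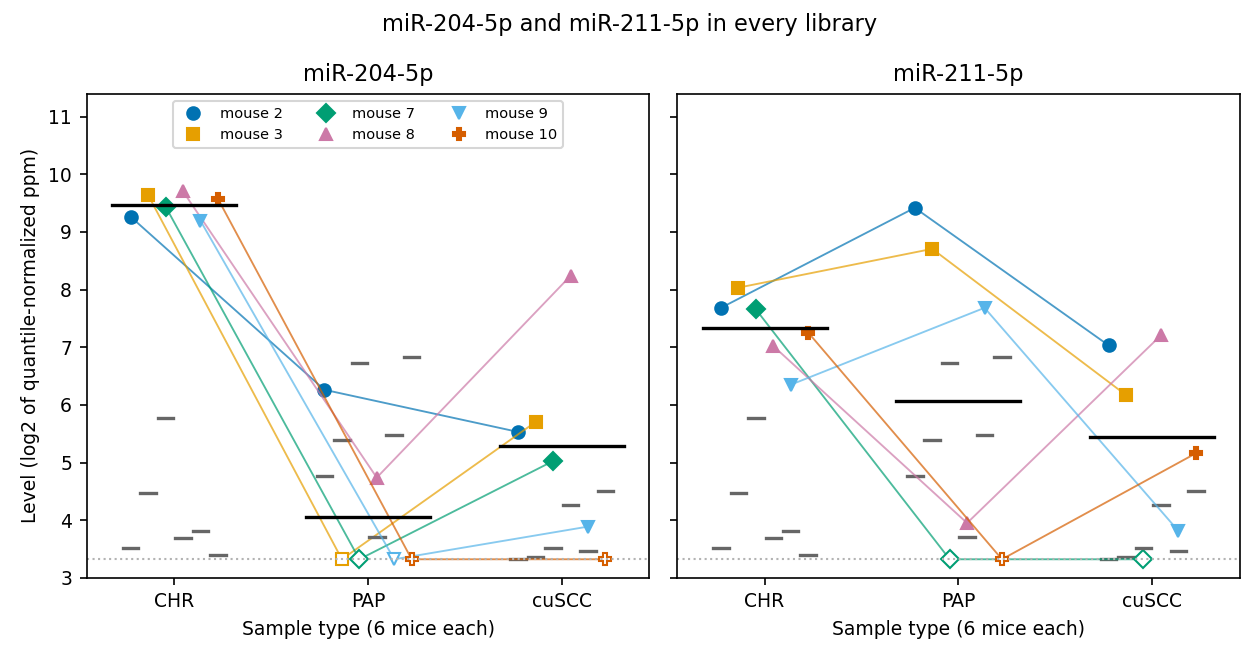
Levels of miR-204-5p (left) and miR-211-5p (right) in every library, in log2 of quantile-normalized ppm, by sample type, with lines joining the libraries of a mouse and black bars at group means. Open symbols on the dotted line are undetected values and grey ticks the lowest detected value of each library. miR-204-5p lies at 9.19 to 9.70 in CHR and at or below 8.24 in every lesion, whereas miR-211-5p of PAP lies on both sides of its CHR range.

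The group means of miR-204-5p were 4.05 ± 1.22 in PAP and 5.28 ± 1.72 in cuSCC (SD, n = 6), with undetected libraries counted at the lowest value. PAP differed from CHR by -5.42 on the log2 scale (standard error 0.48) and cuSCC by -4.18 (standard error 0.63). For scale, every library of a lesion type lay below every CHR library for 28 of the 293 microRNAs in PAP (9.56%) and for 31 in cuSCC (10.6%), and the median difference over all 293 was -0.23 and 0.11. In the order of differences from CHR, miR-204-5p was second from the bottom in PAP, after the skeletal muscle microRNA miR-133a-3p (-10.04), and was the lowest of all in cuSCC, before miR-181a-2-3p (-3.82). These places hold with undetected values at 10 ppm and were not ranked again at a higher floor. A higher floor limits miR-204-5p more than miR-181a-2-3p, whose CHR mean was 10.13 against 9.47. Within mice, both lesions were lower than the skin of the same animal in 6 of 6, with a median difference of -5.99 for PAP (from -6.32 to -3.0) and of -4.17 for cuSCC (from -6.25 to -1.46).

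**Figure D2:**
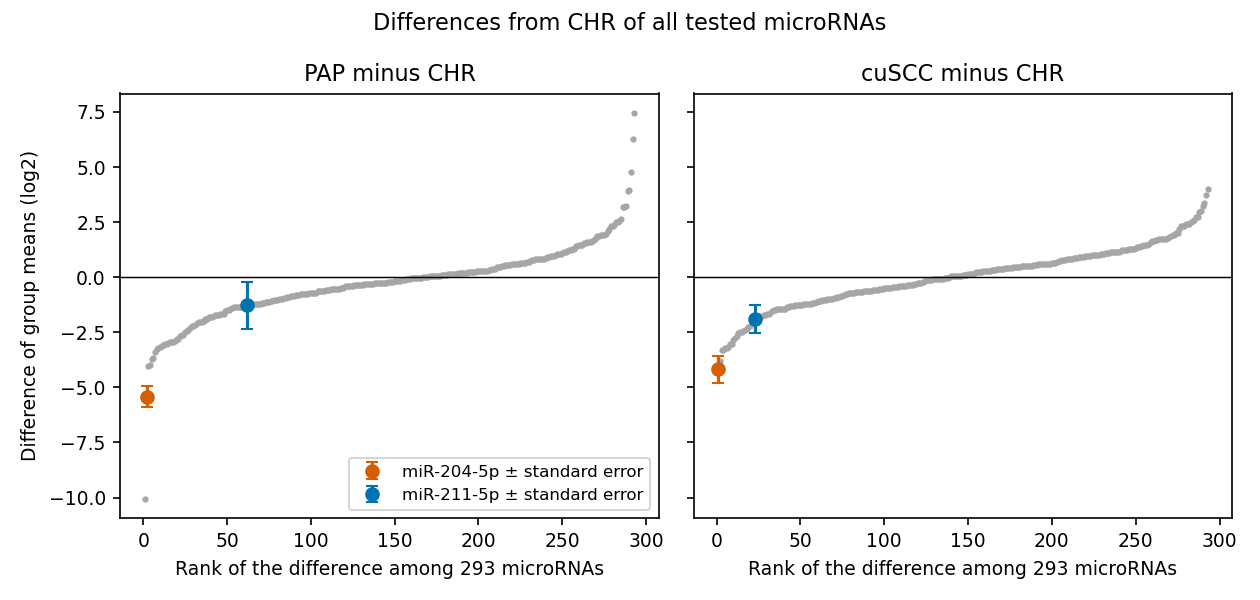
Differences of group means from CHR (log2) for the 293 tested microRNAs, in rising order, for PAP (left) and cuSCC (right). Coloured points are miR-204-5p and miR-211-5p with their standard errors from limma, and grey points are the other microRNAs. miR-204-5p is the second lowest in PAP (-5.42) and the lowest in cuSCC (-4.18), and miR-211-5p is at places 62 and 23.

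How low miR-204-5p went in the 5 lesions without a detected value is limited by those libraries. Their lowest detected values were 5.40, 6.72, 5.48 and 6.83 in the PAP of mice 3, 7, 9 and 10 and 4.50 in the cuSCC of mouse 10. Each of these limits is below the lowest CHR level, by 2.36 at the least, in the PAP of mouse 10. The size of the difference is therefore less certain than its direction. Where each undetected value was replaced by its library's lowest detected one, PAP differed from CHR by -3.56 and cuSCC by -3.99. With a floor of 100 ppm in place of 10 ppm the differences were -2.83 and -2.56. Among the 198 entries detected in all 6 CHR libraries, 20 were undetected in at least 4 PAP libraries, and miR-204-5p had the highest CHR mean of these 20, ahead of miR-330-3p at 7.85.

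Between the lesion types, a contrast that the choice of the arms did not fix, miR-204-5p was tested in the limma fit over all 293 microRNAs. cuSCC stood 1.24 above PAP (95% interval -0.48 to 2.95, standard error 0.79, limma adjusted p = 0.315), a difference within the spread between libraries, and the exact permutation test, two-sided, gave p = 0.175. The groups overlapped, and cuSCC was above PAP in 4 of 6 mice, below it in mouse 2 and equal in mouse 10, where both were undetected. Replacing undetected values by their library's lowest detected one turned the difference to -0.42 (limma adjusted p = 0.633, where the other alternatives gave adjusted p from 0.187). In this contrast 34 of 293 microRNAs passed an adjusted p under 0.05 (11.6%), neither miR-204-5p nor miR-211-5p among them, and 83 had an unadjusted p under 0.05 (28.3%). The order of the means was thus CHR, cuSCC and PAP, and the last pair do not differ beyond their spread.

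miR-211-5p was the less abundant 5p arm in skin, at 7.68, 8.03, 7.66, 7.02, 6.35 and 7.25 in mice 2, 3, 7, 8, 9 and 10. Its CHR mean was 7.33 ± 0.60 (SD, n = 6), in the middle of the range of spreads seen in CHR. In PAP it was 9.42 in mouse 2, 8.71 in mouse 3, 3.95 in mouse 8 and 7.68 in mouse 9, and was undetected in mice 7 and 10. The papillomas of mice 2 and 3 were thus above every skin library, that of mouse 9 was within the CHR range, and that of mouse 8 was below it. Those of mice 7 and 10, listed at the lowest value, could not be placed against the skin range. Its SD in PAP, 2.84, was the 7th largest of the 293 microRNAs, with the papillomas of mice 7 and 10 counted at the lowest value. In cuSCC it was 7.03, 6.17, 7.21, 3.81 and 5.16 in mice 2, 3, 8, 9 and 10 and undetected in mouse 7. There 4 of 6 carcinomas were below the CHR range and 2 within it.

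The mean of miR-211-5p was 6.07 ± 2.84 in PAP and 5.45 ± 1.64 in cuSCC (SD, n = 6). PAP differed from CHR by -1.27 on the log2 scale (standard error 1.07) and cuSCC by -1.88 (standard error 0.63). In both lesion types the groups overlapped with CHR, and the differences stood at places 62 and 23 from the bottom among 293. Within mice, the papilloma was above the skin of the same animal in 3 of 6 (mice 2, 3 and 9, differences of 0.67 to 1.73). It was below its skin in 3 (mice 7, 8 and 10), by -3.07 in mouse 8. In mice 7 and 10 the differences, -4.33 and -3.93, use undetected papilloma values. Nothing under 6.72 and 6.83 was detected in those papillomas, beside 7.66 and 7.25 in their skins, so only the direction can be read there. The carcinoma was below its skin in 5 of 6, mouse 8 being the exception at 0.19. The word lost therefore describes miR-204-5p in these lesions better than miR-211-5p.

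The lower mean of miR-211-5p in PAP rested on the shallowest libraries. In the PAP of mice 7 and 10 no microRNA was detected under 6.72 and 6.83, above the 6.35 that miR-211-5p had in the CHR of mouse 9, so its absence there does not place it below the skin range. Without these 2 libraries, a choice made after seeing the data, PAP differed from CHR by 0.11, and with a floor of 100 ppm by 0.24. In the cuSCC of mouse 7, by contrast, values down to 3.52 were detected, well under the lowest CHR level. Between cuSCC and PAP miR-211-5p differed by -0.62 (95% interval -3.24 to 2.01, standard error 1.21, limma adjusted p = 0.781) and was within the spread between libraries. The difference was -1.99 without the PAP of mice 7 and 10, -1.73 with undetected values at their library's lowest detected one, and 0.034 without mouse 9. The exact permutation test of this difference, two-sided, gave p = 0.654. The order of the means was CHR, PAP and cuSCC, and neighbours in it overlapped.

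miR-204-5p was the higher of the 5p arms in every skin library but not in every lesion. In CHR miR-204-5p exceeded miR-211-5p in each of 6 libraries, by 1.58 to 2.85 on the log2 scale (mean 2.14 ± 0.56, SD, n = 6). In PAP miR-204-5p minus miR-211-5p was -3.16, -5.38 and -4.36 in mice 2, 3 and 9, the reverse of skin, and 0.79 in mouse 8, and it could not be read in mice 7 and 10, where neither arm was detected. In mice 3 and 9 the miR-204-5p side of this difference is an undetected value. In cuSCC the difference was 1.70, 1.03 and 0.07 in mice 7, 8 and 9 and -1.5, -0.47 and -1.84 in mice 2, 3 and 10, with miR-211-5p undetected in mouse 7 and miR-204-5p in mouse 10. In mouse 2 both arms were detected throughout, and miR-204-5p and miR-211-5p stood at 9.26 and 7.68 in skin and at 6.26 and 9.42 in papilloma.

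**Figure D3:**
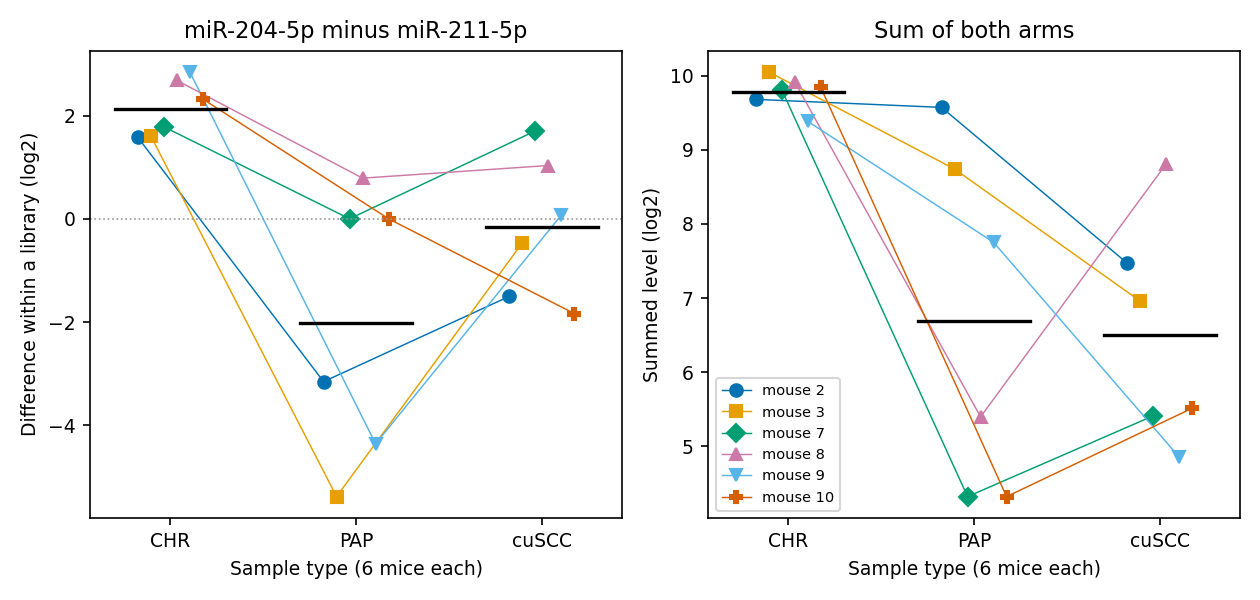
Difference of miR-204-5p minus miR-211-5p within each library (left) and level of their sum (right), both log2, by sample type, with lines joining the libraries of a mouse and black bars at group means. The difference is positive in all 6 CHR libraries and negative in 3 PAP and 3 cuSCC libraries, and the PAP of mice 7 and 10 stand at 0 because neither arm was detected. The sum of the PAP of mouse 2, 9.57, lies within the CHR range.

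Converted to ppm and added, both arms give a combined level, with an undetected arm entering at 10 ppm. The values were normalized before they were added, and reads may have been credited to both arms. The combined level is therefore not free of how reads were divided. This sum was 9.38 to 10.05 in CHR. In PAP it was 9.57, 8.74, 4.32, 5.40, 7.75 and 4.32 in mice 2, 3, 7, 8, 9 and 10, and in cuSCC 7.47, 6.96, 5.41, 8.81, 4.85 and 5.52. All 6 carcinomas and 5 of 6 papillomas were below every skin library, and the papilloma of mouse 2 was within the skin range. The mean differed from CHR by -3.09 in PAP and by -3.28 in cuSCC, and PAP without the libraries of mice 7 and 10 by -1.91. With a floor of 100 ppm the differences were -1.48 in PAP and -1.91 in cuSCC.

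The 3p arms of both hairpins gave no value to compare. miR-204-3p and miR-211-3p were listed at the lowest value in all 18 libraries, so miR-204-3p did not pass the filter on low values, and 2 of the 3 arms, miR-204-5p and miR-211-5p, were tested. Their 6 skin libraries alone would have carried both through this filter. In CHR, where miR-204-5p was near 9.5, a silent opposite arm was not unusual. Of 31 arms whose CHR mean was within 1 of that of miR-204-5p on the log2 scale and whose opposite arm is in the table, itself included, 7 had an opposite arm that was never detected. The lowest value of this table does not always mean absence in the tissue, since miR-1a-3p was detected in 1 of 18 libraries although miR-133a-3p, made in the same muscle cells, averaged 15.63 in CHR. miR-204-3p is therefore only said to be listed at the lowest value.

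Over the 18 libraries, the pattern of miR-204-5p was compared with that of the 292 other tested microRNAs by Pearson's r, as a description. Libraries of a type share the step from skin to lesion, which makes up much of any such r, and r within the 12 lesions is given beside it. The 6 most alike were miR-34b-3p (r = 0.901 over 18 libraries, 0.655 over lesions), an arm of a p53 target, miR-218-1-3p (0.895 and 0.631), miR-1843b-3p (0.853 and 0.230), miR-181a-2-3p (0.851 and 0.502), miR-511-5p (0.839 and 0.493) and miR-145a-5p (0.835 and 0.607), an arm known from smooth muscle. miR-34b-3p went from 7.30 ± 0.86 in CHR to 3.58 ± 0.63 in PAP and 4.28 ± 0.66 in cuSCC (SD, n = 6). It was detected in 6 of 6 skins, 1 of 6 papillomas and 5 of 6 carcinomas, close to the 6, 2 and 5 of miR-204-5p. miR-218-1-3p was detected in 6, 0 and 5 libraries of the same types. In the PAP of mice 3, 7, 9 and 10 and the cuSCC of mouse 10, miR-204-5p, miR-34b-3p, miR-218-1-3p and miR-511-5p were all undetected. Their r over lesions thus rests in part on shared undetected values, some of them in the shallowest libraries.

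At the opposite end, the 3 least alike were miR-210-3p, the best known hypoxia microRNA (r = -0.952 over 18 libraries, -0.840 over lesions), miR-138-5p (-0.879 and -0.579) and miR-125b-1-3p (-0.855 and -0.767). miR-210-3p averaged 7.90 ± 0.41 in CHR, 11.06 ± 0.57 in PAP and 10.29 ± 0.58 in cuSCC (SD, n = 6), with all 12 lesions above all 6 skins. Among carcinomas, mouse 8 had the highest miR-204-5p, 8.24, and the lowest miR-210-3p, 9.64, and mouse 10 the lowest miR-204-5p, undetected, and the highest miR-210-3p, 11.32. The 5 lesions with miR-204-5p undetected had miR-210-3p at 10.96 to 11.85, above the other lesions (9.64 to 10.89). Here too, r over lesions rests in part on undetected values. miR-211-5p, which shares the seed of miR-204-5p, stood at place 63 of 292 in likeness to it (r = 0.497 over 18 libraries and 0.360 over lesions).

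**Figure D4:**
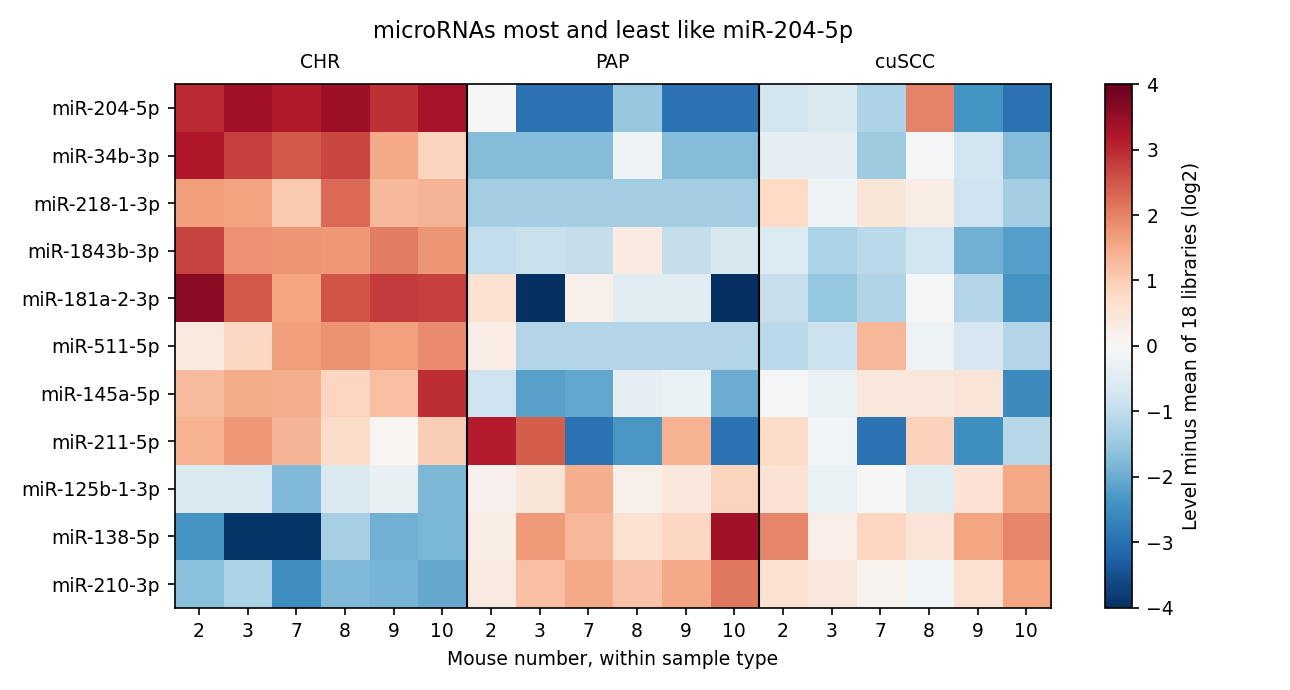
Level of each microRNA minus its mean over the 18 libraries (log2, colours end at 4 either way), for miR-204-5p, the 6 microRNAs most like it, miR-211-5p and the 3 least like it, with mice in number order within each sample type. The upper rows are red in the 6 CHR libraries and mostly blue in lesions, the bottom rows are the reverse, and miR-211-5p is red in the PAP of mice 2, 3 and 9.

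Other microRNAs known, like this family, to hold epithelial identity or to oppose the change of epithelial into mesenchymal cells were followed as a list of 9. All of them were tested (miR-200a-3p, miR-200b-3p, miR-200c-3p, miR-141-3p, miR-429-3p, miR-205-5p, miR-203-3p, miR-34a-5p and miR-375-3p). Against CHR, where 32.4% of the 293 microRNAs passed the limma test at an adjusted p under 0.05 in PAP and 42.3% in cuSCC, no member of this list was called lower. In PAP against CHR 4 of the 9 rose, 0 fell and 5 did not pass the limma test at an adjusted p under 0.05, where 14% of all microRNAs rose and 18.4% fell. The 4 were miR-141-3p (1.58), miR-200b-3p (0.96), miR-200c-3p (1.24) and miR-429-3p (1.87, standard error 0.43, limma adjusted p = 0.00575), and the list's median difference was 0.96 against -0.23 over all microRNAs. In cuSCC against CHR 3 rose, miR-141-3p (1.72), miR-200a-3p (2.02) and miR-429-3p (1.25), 0 fell and 6 did not pass, where 20.1% of all rose and 22.2% fell, with a median of 0.74 against 0.11. With all mice, every member called against CHR was of the miR-200 family. miR-205-5p, miR-203-3p, miR-34a-5p and miR-375-3p passed in neither lesion type. Members of 1 family need not vary independently, so these counts are not separate results. Between cuSCC and PAP miR-34a-5p, another p53 target, was higher by 2.14 (limma adjusted p = 0.0383) and miR-200c-3p differed by -1.45 (limma adjusted p = 0.0319), where 9.22% of all were higher and 2.39% lower, and the list's median was -0.09 against 0.21. With 1 mouse left out, 2 of the 9 rose in PAP against CHR without mouse 3 or mouse 7 (miR-200c-3p and miR-429-3p in both), and 0 in cuSCC against CHR without mouse 2 or mouse 3. miR-34a-5p was undetected in 4 of 6 PAP libraries, and its difference between cuSCC and PAP was 0.28 (limma adjusted p = 0.626) with undetected values at their library's lowest detected one and 0.045 (limma adjusted p = 0.733) with a floor of 100 ppm. Between cuSCC and PAP 0 were called without mouse 3, 7, 8 or 9, and 0 without the PAP of mice 7 and 10. With the mouse as a replicate block, limma gave adjusted p = 0.105 for miR-200b-3p in PAP against CHR, 0.0535 for miR-429-3p in cuSCC against CHR and 0.0549 for miR-200c-3p in cuSCC against PAP, so these 3 calls were lost in the paired fit.

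Markers of other cells in the sample also differed between sample types, and their part in the levels of miR-204-5p and miR-211-5p was not tested. Counts of markers lower or higher than CHR, here and in the next paragraph, are at a limma adjusted p under 0.05. Over all 293 microRNAs, 18.4% were lower and 14% higher in PAP, and 22.2% lower and 20.1% higher in cuSCC. With so few markers in a list, a count of 1 is near these shares. Summed in ppm, with undetected members at 10 ppm, and given on the log2 scale, the 4 skeletal muscle markers stood at 15.44 to 15.98, 5.32 to 12.45 and 6.04 to 14.24 in CHR, PAP and cuSCC, with 3 of 3 tested members lower in PAP and 1 of 3 in cuSCC than in CHR. In CHR this sum was mostly miR-133a-3p, which averaged 15.63 there. In the PAP of mice 3, 7 and 10 none of the 4 was detected. The PAP of mouse 2 held both the highest muscle sum (12.45) and the highest miR-204-5p (6.26) of the papillomas, and the cuSCC of mouse 10 the lowest of both among carcinomas. In the other 5 carcinomas the muscle sum was 13.56 to 14.24, and miR-204-5p ranged from 3.89 to 8.24. Among papillomas, mouse 9 had the next highest muscle sum (6.67) with miR-204-5p undetected. Mouse 8 had a muscle sum of 5.93 with miR-204-5p at 4.74. The sum of the 6 leukocyte markers ranged over 13.13 to 14.28, 9.06 to 11.83 and 11.14 to 12.60 in CHR, PAP and cuSCC, with 2 of 4 tested lower in PAP, and 2 lower and 1 higher in cuSCC. The 2 lower in each lesion type were miR-150-5p and miR-342-3p, which averaged 12.45 each in CHR and carry most of the sum there. The 1 higher in cuSCC was miR-142-5p (1.53). miR-155-5p was at the lowest value throughout. The 5 markers of fibroblasts and smooth muscle stood at 14.30 to 15.06, 11.02 to 14.04 and 12.53 to 15.51 in CHR, PAP and cuSCC, with 3 of 5 lower in PAP and 1 in cuSCC. The 2 endothelial markers were at 7.84 to 9.35, 7.61 to 9.0 and 9.26 to 11.17, with both higher in cuSCC.

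The 7 epithelial markers, which are all in the list of 9 above, summed to 17.50 to 18.51, 17.77 to 18.55 and 17.50 to 18.54 in CHR, PAP and cuSCC, with the same 4 members higher in PAP and 3 in cuSCC as in that list. Most of this sum was miR-205-5p, at 17.37 to 18.47 over all libraries, so the sum says little of the other members. The highest level of miR-205-5p was 18.47 in each sample type, and this was also its PAP median. Quantile normalization gives the top entries of every library the same set values. A steady sum is therefore no measure of epithelial content. The 4 erythroid markers stood at 16.69 to 17.84, 16.70 to 18.24 and 14.87 to 17.87, with 1 of 2 tested higher in each lesion type and the other lower in cuSCC. miR-144-3p was at the lowest value throughout. Of the 6 neural and glial markers, 3 (miR-124-3p, miR-9-3p and miR-219a-5p) had no detected value. The list summed to 8.11 to 9.05, 5.91 to 7.96 and 7.18 to 8.38 in CHR, PAP and cuSCC, with 2 of 2 tested lower in PAP and 1 in cuSCC. No independent marker of pigment cells was on a list, miR-211 being itself the microRNA best known from them.

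**Figure D5:**
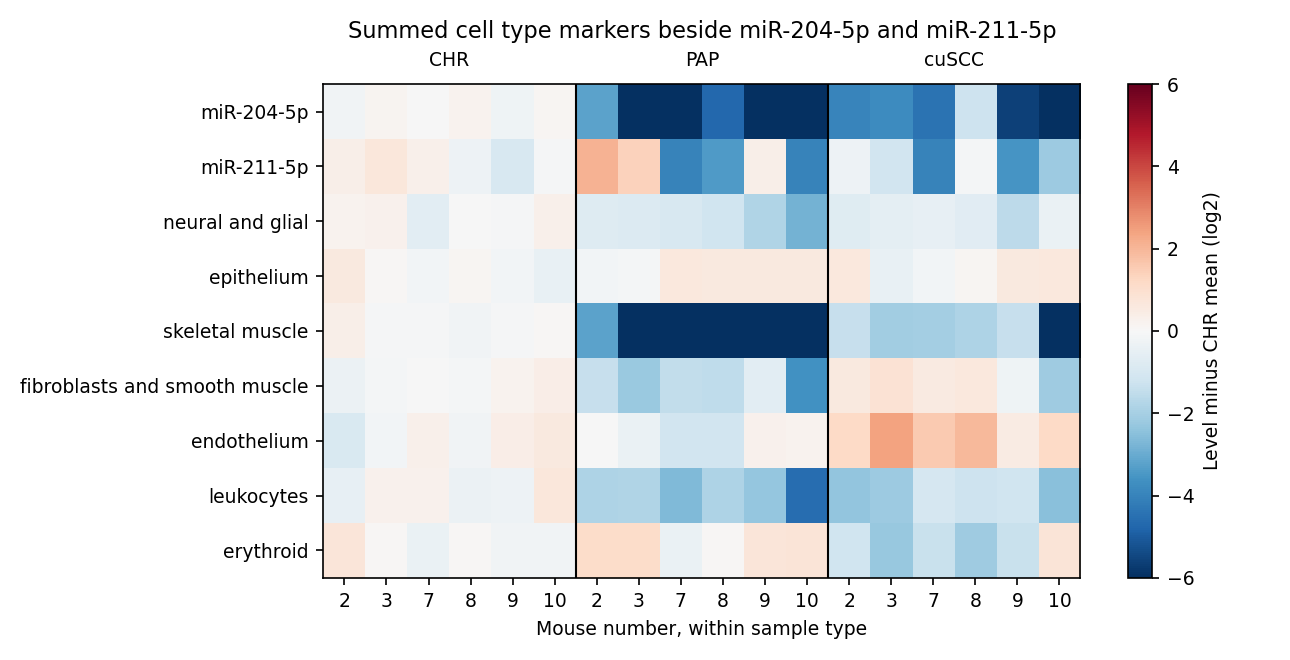
Summed levels of 7 cell type marker lists beside miR-204-5p and miR-211-5p, each minus its CHR mean (log2, colours end at 6 either way), in the 18 libraries with mice in number order within each sample type. The muscle sum is low in PAP and in the cuSCC of mouse 10, and the leukocyte sum is lower in all lesions, though not every leukocyte marker is. The epithelial sum, which is mostly miR-205-5p and is capped by quantile normalization, stays within about 1 of skin, and miR-204-5p is low in all 12 lesions.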

How the data were processed

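Small RNA of 18 mouse samples was sequenced on the Illumina HiSeq platform. The authors removed adapters, short reads and reads with a homopolymer end, assigned what was left to miRBase microRNAs with BLAST (its version is not given in the sources used here), and scaled each microRNA to ppm of usable reads. The deposited values are log2 values, and quantile normalization and the lowest value of 10 ppm were read from the values themselves. Quantile normalization gives relative levels, and depth per library is unknown.

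Entries above the lowest value in at least 6 libraries (293 of 1251) were fitted with limma 3.58.1 in R 4.3.3, for each pair of sample types without a block, two-sided, with Benjamini-Hochberg adjustment. Sums, ranks and plots used Python 3.11.15 (pandas 2.3.3, numpy 2.4.6, matplotlib 3.10.9). The limma step was tested on simulated data. Host genes are from GENCODE on GRCm38, the build of the labels (mm10), and all 3 arms matched a RefSeq sequence.

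The arms, lists and alternatives were chosen with earlier results of these data known. Beside the arms, the text names miR-211-3p, entries sharing a seed, the 6 most and 3 least alike in pattern, those whose mean fell from CHR by as much as miR-204-5p, and the lists. miR-330-3p was named after its value was seen. A shared number marks samples of 1 mouse, by the labels. Deviations from group means within a mouse correlated at 0.025 (PAP and CHR), -0.0676 (cuSCC and CHR) and 0.0582 (cuSCC and PAP) on average. The mice are the replicates, and p-values without a block measure the spread between libraries of a sample type, each from a different mouse. Spread between lesions of 1 mouse cannot be told apart from it. Alternatives covered the filter, the block, 1 fit over all sample types, centring, the treatment of undetected values (each library's lowest detected value, or a floor of 100 ppm) and leaving out each mouse. Leaving out the PAP of mice 7 and 10 and summing the 5p arms were added after the data had been seen.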

Additional observations from a re-analysis of the deposited data

How the results depend on the processing

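The differences of miR-204-5p from CHR kept their direction under all alternatives tried, 11 for PAP and 10 for cuSCC. With 1 mouse left out they were -5.91 to -5.24 in PAP and -4.73 to -3.77 in cuSCC. They shrank to -3.56 in PAP when undetected values took their library's lowest detected one, and to -2.83 in PAP and -2.56 in cuSCC with a floor of 100 ppm, as both settings lift the lesions only. The difference of miR-211-5p between PAP and CHR (-1.87 to -0.65 with 1 mouse left out) turned to 0.24 with a floor of 100 ppm and to 0.11 without the PAP of mice 7 and 10, and that between cuSCC and CHR (-2.30 to -1.39) shrank to -0.58 at 100 ppm. Between cuSCC and PAP neither arm passed under any alternative. Leaving out 1 mouse gave 0.78 to 1.63 for miR-204-5p, which turned to -0.42 when undetected values took their library's lowest detected one (limma adjusted p 0.187 to 0.633 over its alternatives). For miR-211-5p the range was -1.39 to 0.034, the sign turning when mouse 9 was absent, and the difference was -1.99 without the PAP of mice 7 and 10 and -1.73 with undetected values at their library's lowest detected one (limma adjusted p 0.142 to 0.984). In the paired fit, with a replicate block for the mouse, the limma adjusted p of cuSCC against PAP was 0.187 for miR-204-5p and 0.707 for miR-211-5p, and no call on them changed. The block gave 77, 110 and 24 calls in PAP against CHR, cuSCC against CHR and cuSCC against PAP, beside 95, 124 and 34. In the list of 9, 1 call was lower in cuSCC against CHR without mouse 10 (miR-375-3p), and with no filter 1 was called there.

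The number of microRNAs called rested on single mice, at 55 to 79 in PAP against CHR, 77 to 129 in cuSCC against CHR and 1 to 59 in cuSCC against PAP with 1 mouse left out. The last comparison gave 1 call without mouse 3, 7 or 8 and 59 without mouse 10, 8 with no filter beyond varying, 80 with undetected values at their library's lowest detected one (18 higher and 62 lower, against 27 and 7), and 4 without the PAP of mice 7 and 10. For miR-204-3p, which is undetected throughout, a difference arises only by construction. Centring each library gave 0.067, 0.0066 and -0.060 for PAP minus CHR, cuSCC minus CHR and cuSCC minus PAP, and the lowest detected values gave 1.37, -0.37 and -1.74, which are the differences in reach of the libraries. The sum of the arms differed from CHR by -3.69 to -2.61 in PAP and -3.71 to -3.02 in cuSCC with 1 mouse left out, by -1.48 in PAP and -1.91 in cuSCC at 100 ppm, and by -1.89 in PAP with undetected values at their library's lowest detected one. Unknown depth limits what can be said of undetected values.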
